A study of Mus musculus with 18 samples.

Results

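The genes described are the 81 genes for cytosolic ribosomal proteins found by symbol, Rpl or Rps with a number and an optional a, x, l or y, together with Rpsa, Rplp0, Rplp1 and Rplp2, among RefSeq protein-coding transcripts (NM_ entries). They were 50 large subunit and 31 small subunit genes with 92 transcripts, of 14797 genes in the mRNA table and 13917 genes in the RNAome long RNA table, and all 81 were in both tables. Of 83 gene symbols that fit the rule, Rpl6l was not in either table and Rps4l was listed only as a non-coding RefSeq entry. The RNA came from C57BL/6 mouse embryonic stem (ES) cells that lack HPRT, a purine salvage enzyme, at passages 19 to 22, which had been moved from a feeder layer to gelatin, so that some feeder cells can remain. One group received cisplatin at 2.5 µM, which forms platinum adducts and crosslinks on DNA, and the other the vehicle DMSO. No source used here gives the exposure time or says whether the cells are 1 clone. Both groups carry the HPRT deficiency. The 3 cisplatin RNA samples have the codes 8.3.3, 8.4.3 and 8.5.3, and the 3 control samples the codes 8.4.16, 8.5.16 and 8.6.16. Each was read both by RNAome sequencing and by mRNA sequencing. RNAome sequencing reads rRNA-depleted, fragmented total RNA through small RNA adapters, whereas mRNA sequencing starts from poly(A) RNA. The labels name no separate cultures within a group, and a p-value here therefore covers the spread among these samples alone, which can be technical.

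Ribosomal proteins and rRNA form the large subunit, which joins amino acids, and the small subunit, which reads the mRNA. Their mRNAs are among the most abundant of growing cells, and most begin with a stretch of C and T, the terminal oligopyrimidine (TOP) motif, through which the kinase complex mTORC1 and the RNA-binding protein Larp1 control their translation. Free Rpl5 and Rpl11 can bind Mdm2, the ubiquitin ligase of p53, which ties the family to the response to DNA damage. Mammalian genomes hold many processed pseudogenes of these genes, so that reads of a member can match other places as well.

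The start of the gene is shown first because the C and T stretch there is the feature for which mRNAs of the family are known. RefSeq promoter windows of build GRCm38.p6 were found for 61 of the 81 members (73 windows, several genes having more than 1 start). The longest unbroken run of C and T that lies at least partly within 10 bases of the annotated start reached 8 bases in 41.1% of the member windows (30 of 73) and in 13.7% of all 32851 windows. It reached 10 bases in 31.5% of member windows and in 6.97% of all windows. The letters CTTTCC within 20 bases of the start were on the sense strand in 15.1% of member windows, 9 large and 2 small subunit, and in 1.95% of all windows. The reverse complement, GGAAAG, was in 0% of member windows and in 1.74% of all. In the lines that follow each sequence has 15 bases before and 15 from the annotated start, 5′ to 3′, and the capitals mark the run of C and T. The first 4 were picked, after the windows were searched, because the run crosses the start, and Rps27 and Rps27l, and Rpl39 and Rpl39l, are pairs of close relatives that are compared further on.
Rps6 (chr4:86857353-86857382, minus strand): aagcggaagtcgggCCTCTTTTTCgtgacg
Rplp2 (chr7:141447636-141447665, plus strand): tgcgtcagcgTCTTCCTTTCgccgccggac
Rpl28 (chr7:4792950-4792979, plus strand): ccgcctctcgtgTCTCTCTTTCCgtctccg
Rpl38 (chr11:114668565-114668594, plus strand): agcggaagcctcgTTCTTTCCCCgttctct
Rps27l (chr9:66946071-66946100, plus strand): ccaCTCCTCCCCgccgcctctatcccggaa
Rps27 (chr3:90213634-90213663, minus strand): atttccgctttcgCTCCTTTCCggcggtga
Rpl39l (chr16:10170213-10170242, plus strand): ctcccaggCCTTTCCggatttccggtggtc
Rpl39 (chrX:37085208-37085237, minus strand): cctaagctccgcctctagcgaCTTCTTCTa

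Runs of C and T cross the annotated start in Rps6, Rplp2, Rpl28, Rpl38 and Rps27. In Rps27l and Rpl39l the run ends before the start, and in Rpl39 it lies after it. The annotated start need not be the start used in these cells.

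The libraries held 20365963 to 31604098 counts in mRNA sequencing and 43404675 to 94373096 in the RNAome long RNA table. Members took 503000 to 818779 counts of an mRNA library and 25639 to 120167 of an RNAome library, with the fewest in control 8.4.16. CPM is the count scaled to the TMM-adjusted library size over the genes tested, coding and non-coding. The 10 ES cell markers were all listed in mRNA sequencing, with a summed level of 4909 to 5115 CPM in cisplatin and 5301 to 5593 CPM in control libraries, and 7 fell in cisplatin with edgeR's adjusted p under 0.05. Feeder fibroblast markers (8 of 10 listed, without Dcn and Lum) summed to 61.3 to 123 CPM in cisplatin and 71.6 to 101 CPM in control. Trophectoderm markers (4 of 6 listed, without Cdx2 and Elf5) summed to 46.1 to 53.1 CPM in cisplatin and 31.3 to 41.2 CPM in control mRNA libraries, and 2 of the 3 tested rose. Over all genes tested in mRNA sequencing, 18.0% rose and 19.2% fell. In RNAome libraries the trophectoderm markers summed to 4.17 to 9.61 CPM in cisplatin and 7.03 to 7.87 CPM in control (2 of 6 listed), the ES cell markers to 218 to 414 CPM in cisplatin and 328 to 607 CPM in control, and the feeder markers (5 of 10 listed) to 2.80 to 5.42 CPM in cisplatin and 2.71 to 5.80 CPM in control. These RNAome ranges overlapped, and none of the markers tested there was called, where 2.02% of all genes were. The part of these differences in the results was not tested. In bulk RNA, fewer cells of a type and less RNA per cell cannot be told apart.

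In the expression counts the family held a larger part of the protein-coding counts in cisplatin than in control libraries, while the scaled sums overlapped. Members took 6.03%, 6.11% and 6.08% of the protein-coding counts in cisplatin libraries 8.3.3, 8.4.3 and 8.5.3, against 5.45%, 5.69% and 5.47% in the control libraries. The groups did not overlap on this share. In RNAome sequencing the shares were 4.29%, 4.44% and 4.13% in cisplatin, against 2.88%, 3.65% and 3.52% in control, again without overlap. In the abundance counts, a second deposited set described below, the RNAome shares did overlap. They were 2.61%, 2.70% and 2.55% in cisplatin, against 1.95%, 2.58% and 2.39% in control. The mRNA shares stayed apart there, at 2.94% to 3.02% in cisplatin and 2.67% to 2.78% in control. The share depends on the other transcripts in a library. After TMM scaling, which sets libraries level on the bulk of genes, the members summed to 57032 ± 480 CPM in cisplatin and 55615 ± 1298 CPM in control mRNA libraries (SD, n = 3 each), and the ranges overlapped (56512 to 57457 CPM and 54800 to 57112 CPM). In RNAome libraries the scaled sums were 5345 ± 326 CPM in cisplatin and 5322 ± 628 CPM in control.

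The proportion of large to small subunit counts overlapped between treatments. The counts on large over those on small subunit genes were 1.57 ± 0.005 in cisplatin and 1.58 ± 0.007 in control mRNA libraries (SD, n = 3 each). In RNAome libraries the ratios were 1.55 ± 0.054 in cisplatin and 1.51 ± 0.108 in control. In both assays the ranges of the groups overlapped.

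Per kilobase of coding sequence, which leaves out untranslated parts, the median mRNA level was 1216 CPM per kb over 48 large subunit genes and 1413 CPM per kb over 31 small subunit genes. The quartiles were 997 and 1633 CPM per kb for large subunit members, and 1182 and 1792 CPM per kb for small subunit members. Rplp1, a protein of the stalk that recruits elongation factors, was highest, with 2934 ± 65.1 CPM per kb in cisplatin and 2819 ± 71.3 CPM per kb in control (SD, n = 3 each). It was followed by Rpl39, which lines the exit tunnel, with 2680 ± 89.996 CPM per kb in cisplatin and 2524 ± 134 CPM per kb in control. Rpl8, near the peptidyl transferase centre, had 2210 ± 36.1 CPM per kb in cisplatin and 2149 ± 15.3 CPM per kb in control. Rpl4, of the exit tunnel, had 2186 ± 76.5 CPM per kb in cisplatin and 2149 ± 97.6 CPM per kb in control, so that these neighbours in the order lay within their spread. This order rests on the expression counts. The authors also deposited abundance counts, described below, which put Rpl8 and Rpl4 above Rplp1 and Rpl39 per coding base. These were 117641 counts on 774 coding bases for Rpl8 and 167498 on 1260 for Rpl4. Rplp1 had 37087 on 345 and Rpl39 8407 on 156.

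Among small subunit genes, Rps20, Rps24, Rps29 and Rpsa stood highest in the expression counts. In the abundance counts Rps3 stood above them, with 89342 on 732 coding bases, against 33184 on 360 for Rps20. Rps20, a protein of the head, had 2229 ± 29.6 CPM per kb in cisplatin and 2193 ± 46.8 CPM per kb in control. Rps24 had 2156 ± 28.8 CPM per kb in cisplatin and 2072 ± 20.5 CPM per kb in control. Rpsa, also known as the laminin receptor precursor, had 2067 ± 37.9 CPM per kb in cisplatin and 1960 ± 99.8 CPM per kb in control. These genes, with Rps29 at 2013 ± 72.7 CPM per kb in cisplatin and 2031 ± 29.2 CPM per kb in control, lay close together. The small subunit genes at the low end were Rps2, with 321 ± 41.98 CPM per kb in cisplatin and 352 ± 41.9 CPM per kb in control, and Rps27l, with 559 ± 15.8 CPM per kb in cisplatin and 483 ± 14.6 CPM per kb in control. In the abundance counts Rps12, with 3605 on 399 coding bases, stood below Rps27l, with 7391 on 255.

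**Figure D1:**
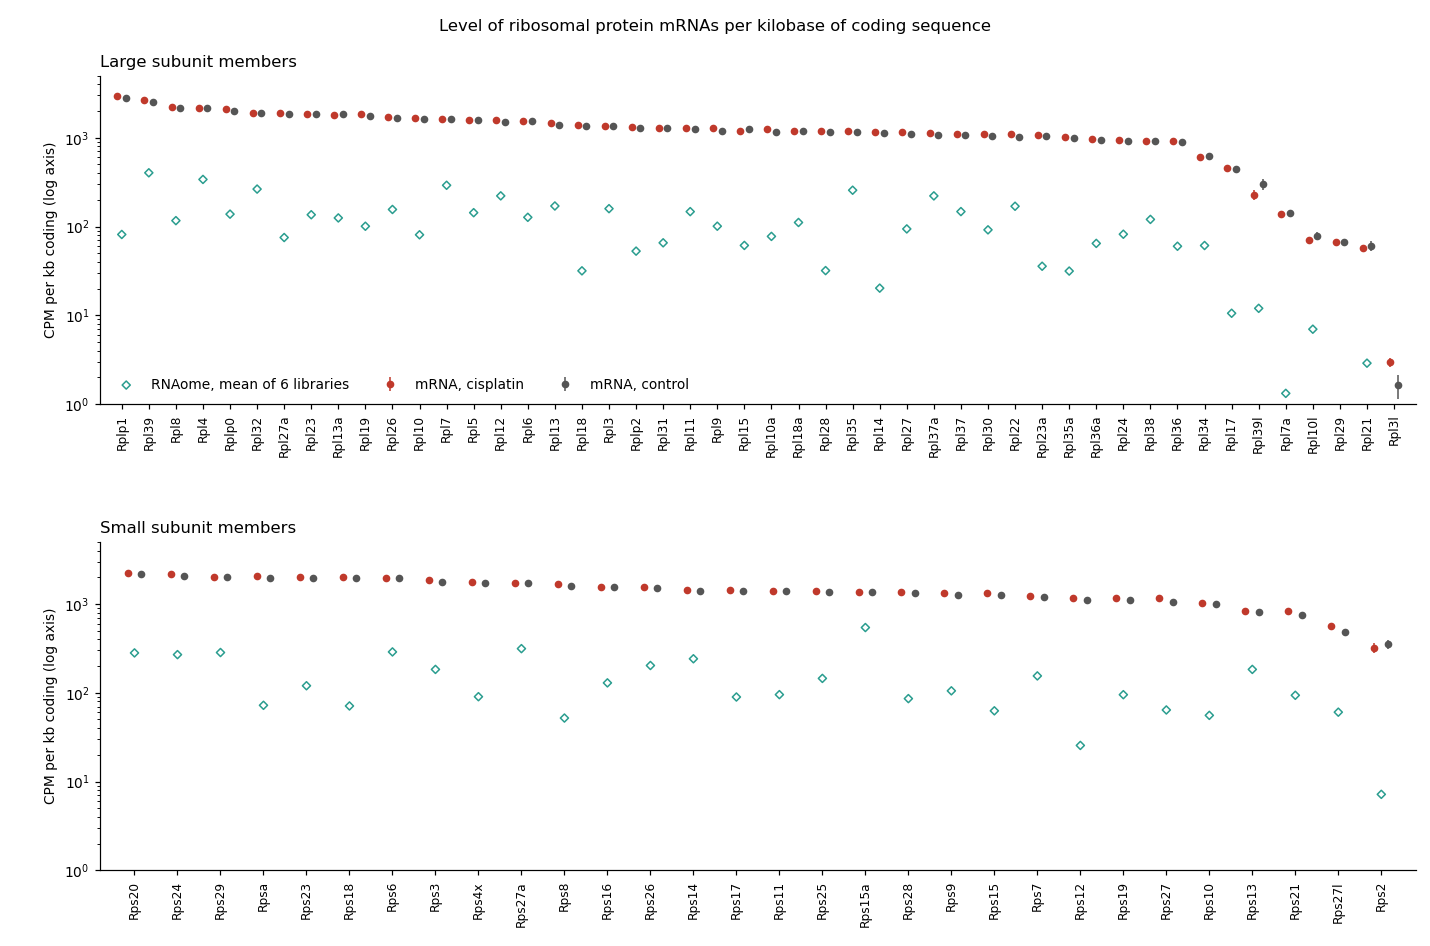
Level of 78 members per kilobase of coding sequence (CPM per kb, log axis), large subunit above and small subunit below, ordered by the mRNA level. Circles are means of 3 mRNA libraries with SD, cisplatin left of control, and diamonds are means of 6 RNAome libraries, missing where a gene had too few RNAome reads. Most members lie within a narrow band in mRNA sequencing, from which Rpl3l, Rpl21, Rpl29, Rpl10l and Rpl7a fall away at the right.

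The low end of the large subunit held genes of 2 kinds. Rpl3l, a muscle relative of Rpl3, had 7 to 31 reads per mRNA library, and Rpl10l, a relative of Rpl10 that acts in male meiosis, was at 70.8 ± 5.70 CPM per kb in cisplatin and 78.3 ± 7.74 CPM per kb in control, or 4.29% ± 0.315 of the level of Rpl10 in cisplatin and 4.82% ± 0.548 in control (SD, n = 3 each). Rpl21, Rpl29 and Rpl7a are standard large subunit proteins. Rpl21 was listed at 57.8 ± 3.88 CPM per kb in cisplatin and 60.8 ± 8.15 CPM per kb in control. Rpl29 was at 66.6 ± 2.90 CPM per kb in cisplatin and 67.04 ± 2.88 CPM per kb in control, and Rpl7a at 139 ± 5.77 CPM per kb in cisplatin and 144 ± 10.7 CPM per kb in control. A near-identical copy is here another place in the mm9 genome that matches at least 80% of a coding sequence at 95% identity or more: Rpl21 has 56 of them, Rpl29 28 and Rpl7a 32. Over 79 members, Spearman's rho between this number and the mRNA level per kb was -0.06, as a description. The median level was 336 CPM per kb over the 7 members with 20 or more copies. It was 1431 CPM per kb over the 37 with 5 to 19 copies, 1304 over the 29 with 1 to 4 and 1145 over the 6 with none.

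Copies of this kind were found for 73 of the 79 members with a coding sequence in GENCODE vM1, 585 in all, with a median of 6 per gene. Rpl8, Rps3, Rpl3l, Rpl39l and Rps27l were among the 6 members with none. The authors deposited both an expression and an abundance table, in which no abundance count exceeded the expression count of the same feature, and no source used here says how the tables differ. The abundance count was a median of 30.7% of the expression count over the 81 members in mRNA sequencing, and 100% over 12731 other genes with at least 100 counts. It was under 50% for 70.4% of members and for 5.18% of the other genes. The 6 members without a copy kept a median of 94.8% of their counts in the abundance table, and the 37 members with 5 to 19 copies a median of 22.5%. The 7 members with 20 or more copies kept a median of 17.6% but ranged from 6.90% to 54.8%. Among these, Rpl21 kept 44.1% and Rpl7a 54.8%, above the median of all members. Spearman's rho between the number of copies and this percentage was -0.82 over 79 members in mRNA and -0.69 in RNAome sequencing, given as a description, since members share libraries. How the authors' counting treats reads that match several places was not tested, so single-gene levels of members with copies are uncertain. Ratios between relatives depend on the count used. Over all mRNA libraries Rpl10l and Rpl10 had 3456 and 76417 expression counts, but 2742 and 9588 abundance counts.

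**Figure D2:**
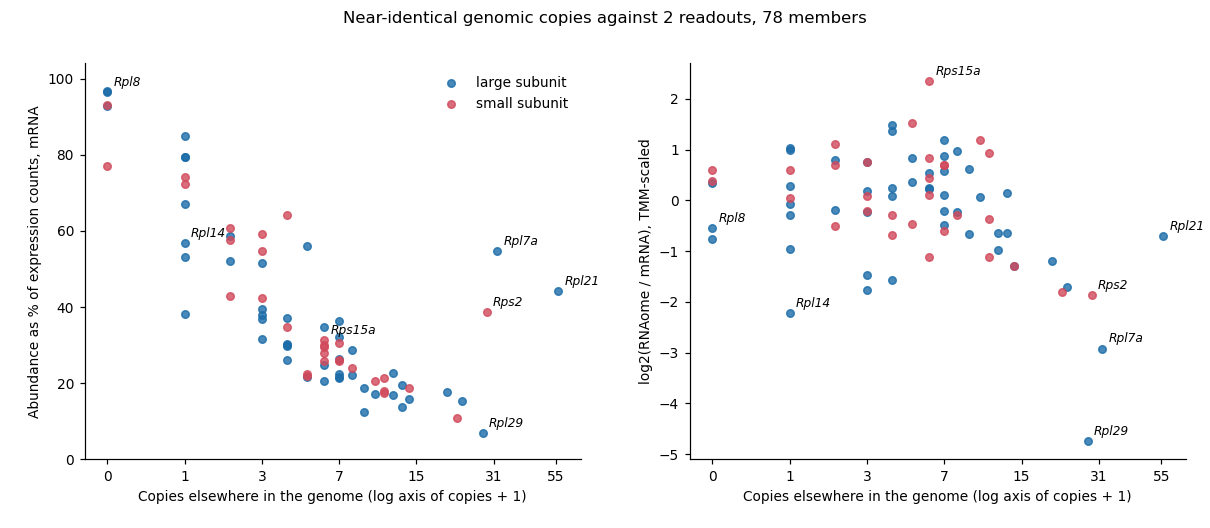
Abundance count as a percentage of the expression count in mRNA sequencing (left) and log2 of RNAome over mRNA level (right), both against the number of near-identical copies of the coding sequence elsewhere in the genome (log axis of copies + 1), 1 point for each of 78 members. The percentage is 77.0% to 96.7% in the 5 plotted members without a copy and a median of 22.5% with 5 to 19 copies. The 7 members with 20 or more copies range from 6.90% to 54.8% on the left and all lie below 0 on the right.

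Most members differed little between cisplatin and control cells in mRNA sequencing. The median log2 fold change (cisplatin over control) was 0.04 over the 81 members and 0.01 over all 14082 genes tested, and 78 of 81 members lay within 0.2 of 0, as did 6893 of all genes. Of the members, 4 rose and 1 fell (edgeR's quasi-likelihood test, Benjamini-Hochberg adjusted p under 0.05), where 37.2% of all genes were called, 18.0% higher and 19.2% lower. By subunit, 2 of 50 large subunit genes rose and 1 fell, and 2 of 31 small subunit genes rose and none fell. At an unadjusted p under 0.05 there were 7 members, against 45.4% of all genes. The replicate spread was small: the median SD of log2 CPM was 0.03 in cisplatin and 0.05 in control over members, and 0.09 in cisplatin and 0.11 in control over all genes.

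The direction was mostly upward but small. Of 81 members, 64 had a fold change above 0 (38 of 50 large and 26 of 31 small subunit genes), against 52.2% of all genes. In 16 members all 3 cisplatin libraries lay above all 3 control libraries and in 2 below, where 24.9% and 23.9% of all genes did so. The median over members was 0.03, 0.05 and 0.04 above the control mean in cisplatin 8.3.3, 8.4.3 and 8.5.3, but control 8.5.16 also lay 0.04 above that mean. With libraries scaled to their totals alone, 55 members rose, the median of the members was 0.13 and that of all genes was 0.11. The count of members that rose is therefore relative to the bulk of genes.

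**Figure D3:**
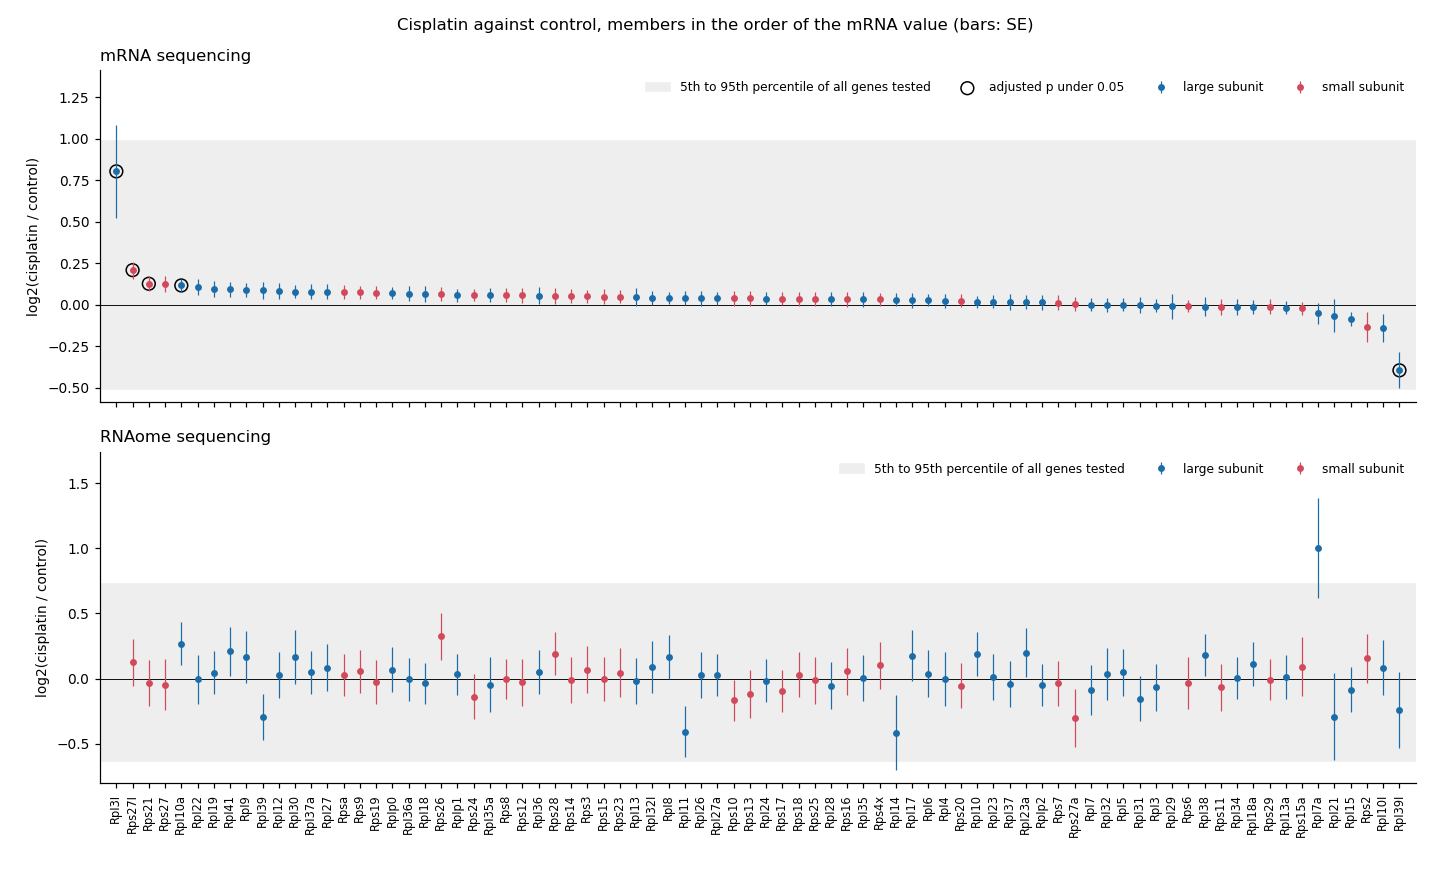
Log2 of cisplatin over control with SE for 80 members, mRNA sequencing above and RNAome sequencing below, both in the order of the mRNA value, coloured by subunit, with the 5th to 95th percentile of all genes tested in grey. In mRNA sequencing 5 members (circled) passed the test, and the rest form a flat line close to 0. No member passed in RNAome sequencing, where the bars are wider.

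The members that changed were led by relatives of standard ribosomal proteins. Rps27l differs from Rps27 at 3 of 84 residues (coding identity 76.1%) and is known as a target gene of p53. The gene is on chromosome 9 (66793893 to 66797319, plus strand, mm9). Rps27l had 140, 140 and 147 CPM in the cisplatin libraries, against 124, 127 and 119 CPM in the control libraries. All cisplatin libraries lay above all control libraries. It rose by 0.21 ± 0.05 on the log2 scale (SE, edgeR adjusted p = 0.0058), and this call held in each of 12 alternative settings. Rps27 itself had 309, 290 and 283 CPM in cisplatin, against 271, 279 and 259 CPM in control, with no overlap but a difference of 0.12 ± 0.05 that missed the threshold (edgeR adjusted p = 0.066). Per coding kilobase, Rps27l stood at 48.5% ± 3.31 of Rps27 in cisplatin and 45.7% ± 0.355 in control mRNA libraries (SD, n = 3 each), and at 102% ± 6.61 in cisplatin and 94.2% ± 38.6 in control RNAome libraries. The ranges of the groups overlapped in both assays. These percentages rest on the expression counts, which over all mRNA libraries were 9595 on Rps27l and 20421 on Rps27. In the abundance counts the order was reversed, with 7391 on Rps27l and 4586 on Rps27.

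Rpl39l, a relative of Rpl39 best known from male germ cells that differs from it at 3 of 51 residues, was the only member that fell. It lies on chromosome 16 (10170319 to 10174723, plus strand, mm9). Rpl39l had 30.7, 39.2 and 36.7 CPM in cisplatin, against 46.3, 40.5 and 53.9 CPM in control, and the groups came close (39.2 and 40.5 CPM) without overlapping. The difference was -0.40 ± 0.11 (edgeR adjusted p = 0.010), and the call held in each of 12 alternative settings. Rpl39 had 403, 422 and 430 CPM in cisplatin, against 389, 417 and 376 CPM in control, which overlap (0.09 ± 0.05, edgeR adjusted p = 0.19). In mRNA sequencing Rpl39l stood at 8.49% ± 0.837 of Rpl39 per coding kilobase in cisplatin and 11.99% ± 2.32 in control. In RNAome sequencing it stood at 3.10% ± 0.248 in cisplatin and 2.90% ± 0.624 in control (SD, n = 3 each), with overlap and in the other direction. These percentages also rest on the expression counts, 2959 on Rpl39l and 29359 on Rpl39 over all mRNA libraries. The abundance counts were closer together, at 2748 and 8407.

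The other 3 calls were lost under several alternative settings. Rpl3l had 29, 31 and 19 reads in cisplatin, against 7, 20 and 17 in control, which is 2.31, 2.25 and 1.86 CPM against 0.764, 1.40 and 1.40 CPM. The counts are low in every library. Its difference was 0.80 ± 0.28 (edgeR adjusted p = 0.035), and it was not called by DESeq2 (adjusted p = 0.15), nor without cisplatin 8.3.3 (0.087) or 8.4.3 (0.10), nor without control 8.4.16 (0.13) or 8.5.16 (0.050). Rpl3 had 1609, 1679 and 1646 CPM in cisplatin and 1671, 1704 and 1583 CPM in control, an overlap.

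Rpl10a, of the stalk near the exit site for tRNA, had 828, 818 and 814 CPM in cisplatin, against 730, 783 and 756 CPM in control (0.12 ± 0.04, edgeR adjusted p = 0.037). Rps21 had 208, 212 and 207 CPM in cisplatin, against 185, 194 and 194 CPM in control (0.13 ± 0.05, edgeR adjusted p = 0.045). In both genes the groups did not overlap, but the call was lost in 9 of 12 alternatives for Rpl10a and in 10 of 12 for Rps21. Without control 8.4.16 the adjusted p was 0.18 for each, and leaving out any 1 cisplatin library also ended both calls (0.074 to 0.11 for Rpl10a and 0.084 to 0.14 for Rps21). The call of Rps21 was lost without control 8.5.16 too (0.075).

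**Figure D4:**
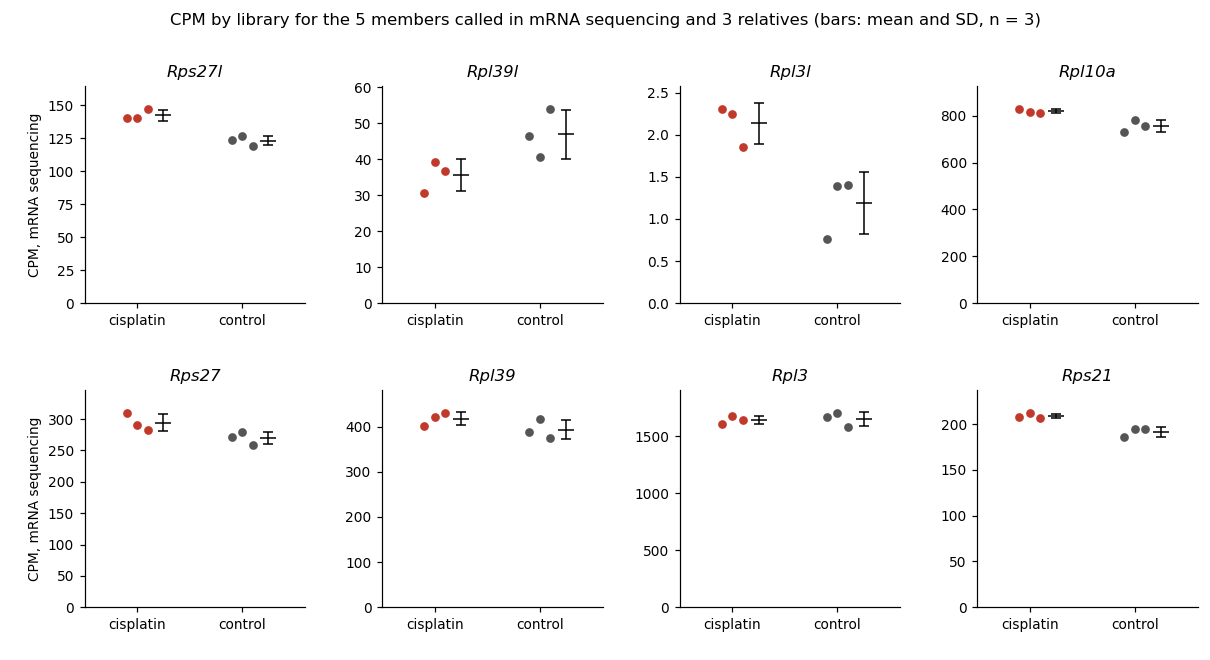
CPM in each mRNA library for the 5 members that passed the test (Rps27l, Rpl39l, Rpl3l, Rpl10a, Rps21) and the standard relatives Rps27, Rpl39 and Rpl3, cisplatin left and control right, with mean and SD over 3 libraries. Rps27l is above its controls in all 3 cisplatin libraries, Rpl39l is below, and Rpl3 overlaps between groups.

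Other members with known ties to p53 overlapped between the groups. Rpl5 had 1401 ± 20.5 CPM in cisplatin and 1401 ± 56.8 CPM in control (SD, n = 3 each). Rpl11 had 694 ± 6.73 CPM in cisplatin and 674 ± 17.1 CPM in control (0.04 ± 0.04, edgeR adjusted p = 0.46). Rpl23, which also binds Mdm2, had 783 ± 16.2 CPM in cisplatin and 774 ± 13.1 CPM in control. Rpl26, which in human cells binds the mRNA of p53, had 745 ± 12.5 CPM in cisplatin and 725 ± 33.8 CPM in control. Mdm2, their partner, rose: it had 222, 263 and 297 CPM in cisplatin, against 122, 109 and 89.5 CPM in control (1.29 ± 0.11, edgeR adjusted p = 7.5e-07). Of the 10 genes listed for this axis and for outputs of p53, 9 rose and none fell, among them Plk2 (2.30 ± 0.13) and Cdkn1a (1.16 ± 0.09). Of all genes tested, 18.0% rose and 19.2% fell. The list was chosen with earlier results of these data known, so its count is not independent support. Mdm2, Plk2 and Cdkn1a were named from it for the smallest adjusted p in this comparison.

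Members known for other roles gave no call either. Rpl22, an RNA-binding protein of the large subunit, had 410, 435 and 435 CPM in cisplatin, against 408, 406 and 375 CPM in control, without overlap (0.11 ± 0.05, edgeR adjusted p = 0.094). The stalk protein Rplp0 had 2029 ± 11.8 CPM in cisplatin and 1932 ± 47.4 CPM in control (edgeR adjusted p = 0.14), and Rplp2 456 ± 18.2 CPM in cisplatin and 451 ± 7.94 CPM in control. Rps6, the substrate of the kinases downstream of mTORC1, had 1456 ± 19.5 CPM in cisplatin and 1466 ± 7.03 CPM in control. Rps19, whose partial loss causes anaemia in humans, had 510 ± 11.4 CPM in cisplatin and 485 ± 3.75 CPM in control, without overlap but not called (edgeR adjusted p = 0.18). Rps14, tied to another human anaemia, had 660 ± 17.3 CPM in cisplatin and 637 ± 24.9 CPM in control. Rpl13a, which in human cells also leaves the ribosome to silence translation, had 1106 ± 36.1 CPM in cisplatin and 1120 ± 26.8 CPM in control.

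Other lists of the translation machinery, read against the same 18.0% and 19.2% of all genes, held mostly lower calls. Of 90 ribosome biogenesis factors tested in mRNA sequencing, 42 fell and 2 rose (median -0.15), among them Wdr43, of the small subunit processome, at 231, 224 and 222 CPM in cisplatin, against 317, 305 and 300 CPM in control (-0.45 ± 0.05, edgeR adjusted p = 5.0e-06). Of 45 translation initiation, elongation and termination factors, 21 fell and none rose (median -0.12). Etf1, which ends translation, had 541, 513 and 495 CPM in cisplatin, against 689, 666 and 701 CPM in control. Eif4e, which binds the cap, had 164, 152 and 157 CPM in cisplatin, against 211, 208 and 209 CPM in control. In both genes the groups did not overlap, and in 23.9% of all genes all 3 cisplatin libraries lay below all 3 control libraries. The called genes named from the related lists were picked by the smallest adjusted p in this same comparison. Their separation is therefore no further support. The lists themselves were chosen with earlier results of these data known.

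Of 78 mitochondrial ribosomal protein genes, 4 rose and 8 fell (median -0.06). Of 21 other genes listed as TOP mRNAs, 6 fell and none rose, with Eif4a2 the first by adjusted p (-0.48 ± 0.07). Of 32 genes of mTORC1 and TOP control, 3 rose and 11 fell. Rptor, the scaffold of mTORC1, had 60.8, 61.2 and 57.1 CPM in cisplatin, against 109, 110 and 109 CPM in control (-0.87 ± 0.06, edgeR adjusted p = 1.7e-07). Larp1 had 406, 377 and 373 CPM in cisplatin, against 518, 516 and 540 CPM in control (-0.45 ± 0.05, edgeR adjusted p = 5.6e-06). Ddit4, an inhibitor of mTORC1, rose by 1.84 ± 0.19 (edgeR adjusted p = 4.5e-06). Differences between these lists were not tested.

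Of 8 tested ribosomal protein genes outside the 81, including Rps4l with its non-coding entry, 1 fell and none rose: Rpl7l1, a nucleolar relative of Rpl7, had 241, 238 and 245 CPM in cisplatin, against 276, 258 and 295 CPM in control (-0.19 ± 0.05, edgeR adjusted p = 0.010). Rps3a1, Fau and Rack1, which encode standard parts of the small subunit, had differences between 0.04 and 0.07, and none passed the test.

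Introns gave a further view, added after the tables were seen, since regions that coincide with introns were also counted. How much of their reads comes from unspliced RNA was not tested. In RNAome libraries an intron of Rps12 that contains a small nucleolar RNA had 464539 to 1439186 reads. Over introns that contain no small nucleolar RNA, 75 members were tested in mRNA sequencing, of which none rose and 1 fell, where 13.8% of all genes were called, 7.41% higher and 6.42% lower. The median was -0.06 over members and 0.00 over all genes, and 22 of 75 members lay above 0. The 1 that fell was Rpl3, whose summed introns had 148, 145 and 145 CPM in cisplatin, against 189, 188 and 202 CPM in control (-0.40 ± 0.09, edgeR adjusted p = 0.0016). Its transcript count was not called (-0.01 ± 0.04, edgeR adjusted p = 0.91). Most of these intron reads lay in 1 intron (chromosome 15, 79911462 to 79912044, mm9). That intron had 222, 233 and 164 reads in cisplatin, against 227, 343 and 276 in control, before scaling. The other Rpl3 introns in this sum had 5 to 32 reads per library, and a fall in them was not tested. In RNAome sequencing none of 60 members was called over these introns, where 1.05% of all genes were called, 0.664% higher and 0.382% lower.

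In RNAome sequencing no member was called for cisplatin. Of 79 members tested (Rpl29 and Rpl3l had too few reads), 0 rose and 0 fell by edgeR, where 2.02% of all genes were called, 0.972% higher and 1.05% lower, and DESeq2 also called 0. At an unadjusted p under 0.05 there was 1 member, against 13.8% of all genes. The median over members was 0.01, with 41 of 79 above 0. The median standard error was 0.18, against 0.04 in mRNA sequencing, so changes of the size of most mRNA calls were not detectable here. In 2 members, Rpl7a and Rpl10a, all 3 cisplatin libraries lay above all 3 control libraries and in 0 below, where 9.93% and 9.11% of all genes did so. The member with p under 0.05 was Rpl7a, at 1.46, 1.19 and 1.73 CPM in cisplatin, against 0.378, 0.838 and 0.746 CPM in control, from 2 to 27 reads per library (1.00 ± 0.38, edgeR adjusted p = 0.23).

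The genes called in mRNA sequencing had wider spreads here. Rps27l had 14.1, 16.8 and 17.8 CPM in cisplatin, against 10.8, 17.7 and 15.3 CPM in control, and the groups overlapped (0.13 ± 0.18). Rpl39l had 1.46, 1.64 and 2.18 CPM in cisplatin, against 1.70, 2.42 and 1.81 CPM in control, also an overlap (-0.24 ± 0.29). Rpl10a had 55.5, 55.4 and 55.2 CPM in cisplatin, against 39.3, 47.2 and 50.9 CPM in control, without overlap, as in mRNA sequencing, but it did not pass (0.27 ± 0.16, edgeR adjusted p = 0.51). Rpl11 had 63.9, 68.5 and 71.2 CPM in cisplatin, against 107, 99.9 and 63.3 CPM in control, with 1 control library below all of the cisplatin libraries.

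Control libraries of RNAome sequencing spread more than the treatment difference. Relative to the control mean, the median member was at -0.06, 0.03 and 0.11 in cisplatin libraries, and at -0.15, 0.19 and -0.04 in control 8.4.16, 8.5.16 and 8.6.16. The median SD of log2 CPM over members was 0.13 in cisplatin and 0.22 in control. Control 8.4.16, the lowest, also had the fewest counts on the genes tested, 4990793, against 6722272 to 19331511 in the others. The part of depth in this spread was not tested. Leaving out control 8.5.16 moved the median over members to 0.10 with 62 above 0, and leaving out control 8.4.16 moved it to -0.04 with 26 above 0. Without cisplatin 8.3.3 it was 0.06 with 59 above 0, and without cisplatin 8.5.3 it was -0.04 with 31 above 0. With libraries scaled to their totals alone the median was -0.10 over members and -0.12 over all genes.

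No member passed the test of a difference in the cisplatin effect between the assays. In a fit of all 12 libraries, edgeR's interaction term called 0 of 81 members, where 0% of 13070 genes were called. At an unadjusted p under 0.05 there were 3 members, against 5.89% of all genes: Rpl7a (1.05 ± 0.36), Rpl11 (-0.43 ± 0.20) and Rpl39 (-0.37 ± 0.17). DESeq2 also called 0 members, and 2 genes in all as higher and 43 as lower. The median standard error over members was 0.18, so only differences well above the size of the mRNA changes could have passed.

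The assays ranked the members differently, with gaps well above their standard errors. On the scale that sets the bulk of genes level, 34 members were higher and 35 lower in RNAome than in mRNA sequencing (edgeR adjusted p under 0.05, 12 libraries with treatment as covariate), where 66.7% of all 13070 genes were called, 32.3% higher and 34.4% lower. The split was 20 higher and 22 lower of 50 large subunit genes, and 14 higher and 13 lower of 31 small subunit genes. The median was 0.09 over members and -0.03 over all genes, the SD over genes 1.11 over members and 1.36 over all genes, and the median standard error of a member 0.09. Spearman's rho between the levels per coding kilobase in the assays was 0.56 over 77 members, as a description. With libraries scaled to their totals alone, the median of all genes moved to -2.32 and 80 members were lower, so that these directions are relative to the bulk of genes.

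Rps15a, part of the small subunit body, was furthest above. It had 193, 191 and 277 CPM in cisplatin and 215, 258 and 147 CPM in control RNAome libraries, against 534, 535 and 529 CPM in cisplatin and 537, 552 and 533 CPM in control mRNA libraries. The CPM of the assays are each scaled within its own table, and on the joint scale the difference was 2.34 ± 0.13 (edgeR adjusted p = 1.1e-14). Rpl41, the smallest ribosomal protein, followed with 1.57 ± 0.10, and Rps13 with 1.53 ± 0.10. With library totals alone Rps15a was at 0.01 and the other two turned negative. Per coding kilobase Rps15a was first of 77 members in RNAome sequencing and the 37th of 79 in mRNA sequencing.

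Rpl29, Rpl7a and Rpl14 were furthest below. Rpl29 had 0 to 2 reads in each RNAome library, against 291 to 450 reads in each mRNA library (-4.75 ± 0.26, edgeR adjusted p = 1.6e-14). Rpl7a had 2 to 27 reads per RNAome library, against 984 to 1624 per mRNA library (-2.92 ± 0.14). Rpl14 had 9.16, 7.78 and 16.9 CPM in cisplatin and 22.9, 13.04 and 9.59 CPM in control RNAome libraries, against 737, 756 and 755 CPM in cisplatin and 731, 730 and 741 CPM in control mRNA libraries (-2.23 ± 0.15, edgeR adjusted p = 2.0e-12). Rpl29 and Rpl7a have 28 and 32 near-identical copies, and Rpl14 has 1.

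**Figure D5:**
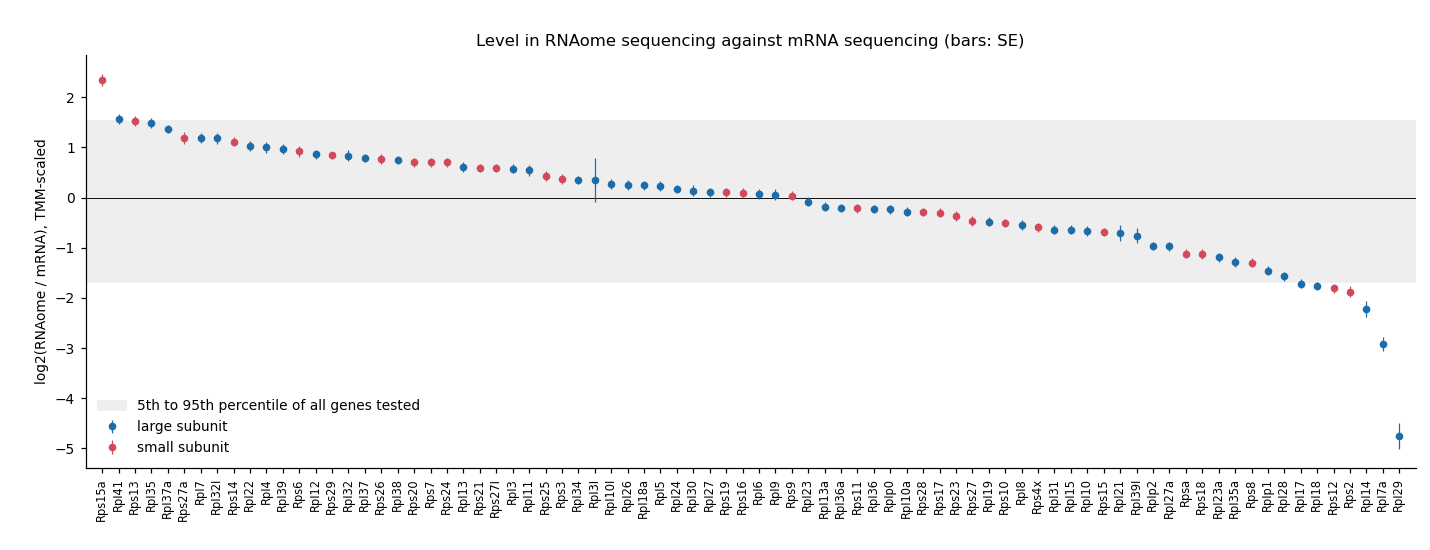
Log2 of the RNAome over the mRNA level with SE for 80 members in order, on the scale that sets the bulk of genes level, coloured by subunit, with the 5th to 95th percentile of all genes tested in grey. Rps15a stands above the grey band at 2.34, Rpl29 far below it at -4.75, with small subunit genes between -1.88 and 2.34 and large subunit genes between -4.75 and 1.57.

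The low end held members with many copies and members with few. Below -1 lay 14 members, or 17.3%, where 14.8% of all genes did so. Of these 14 members, 6 had 20 or more copies, while Rpl14 had 1, Rpl18 (-1.76) and Rplp1 (-1.46) had 3 and Rpl28 (-1.57) had 4, of which Rpl18 and Rpl28 were picked after their values were seen. The 7 members with 20 or more copies (Rpl17, Rpl21, Rpl23a, Rpl29, Rpl7a, Rps12 and Rps2), a bound chosen after the values were seen, were all lower in RNAome sequencing, with a median of -1.81, against 0.14 over the 37 members with 5 to 19 copies, 0.08 over the 29 with 1 to 4 and 0.24 over the 6 with none. Over all 79 members, Spearman's rho of the assay difference was -0.29 with the number of copies, -0.17 with coding length and -0.25 with the GC content of the coding sequence. The 14 members with a small nucleolar RNA in a listed intron had a median of -0.31 (-2.92 to 1.53), against 0.09 (-4.75 to 2.34) over the 65 others, and their median number of copies was 11.5, against 5. The part of each of these in the difference between assays was not tested.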

How the data were processed

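Read counts per feature were deposited by the authors without normalization, and per the submitters' processing notes Bowtie, TopHat and edgeR were used with build mm9. Neither versions nor the counting rule are stated in the sources used here. NM_ and NR_ entries were given symbols from a RefSeq gene table, and 1 transcript was kept per gene (NM_ first, then highest mean CPM). The tests on expression tables used R 4.3.3 and edgeR 4.0.16 (TMM, filterByExpr, quasi-likelihood test, two-sided, Benjamini-Hochberg adjusted p under 0.05), with DESeq2 1.42.0 as alternative, and the SE is the absolute log2 fold change over the square root of F. The code was tested on simulated data. Coding lengths (the shortest consensus coding transcript) and mm9 positions came from GENCODE vM1, copies from BLAST 2.17.0 with coding sequences. Genes named are those that passed the test, the extremes of level and of assay difference and a set of members with known roles. From each related list up to 3 were named by the smallest adjusted p in the mRNA comparison. Alternatives were RLE size factors, library totals, DESeq2, no filter, the abundance table, transcripts summed per gene and each library left out. The members and lists were chosen with earlier results of these data known. Each RNA sample was read in both assays, by its code. The correlation across 13070 genes of its deviations from the group means was 0.05 to 0.20 over 6 samples, against -0.13 to 0.04 between different samples. Part of this gap is built in: deviations cancel out within a group, so positive values for the same sample pull those between different samples down. Small RNA tables were not used here. One member is not reported by name here and is left out of the figures, but it stays in every count and fit.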

Additional observations from a re-analysis of the deposited data

How the results depend on the processing

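The count of 4 members that rose with cisplatin in mRNA sequencing was 2 with RLE size factors, 2 without a filter on low counts, 2 in the abundance table, 2 with transcripts summed per gene, 1 with DESeq2 and 55 with library totals only. Leaving out 1 library in turn gave 1 to 4. The 1 member that fell remained 1 in each of the 12 alternatives. Over all genes, 2538 rose and 2698 fell, against 3852 and 1688 with library totals and 1878 and 2390 with DESeq2. In RNAome sequencing 97 rose and 105 fell, against 7 and 43 with library totals, 57 and 103 with DESeq2, and 40 and 38 without cisplatin 8.4.3. No alternative called a member in RNAome sequencing or in the interaction. For RNAome against mRNA level, library totals only gave 0 members higher and 80 lower, and turned Rpl41 to -0.72 and Rps13 to -0.77, with the median of all genes at -2.32. With the RNA sample as replicate block, which pairs the assays, 33 members were higher and 35 lower, and 0 members passed in the interaction, where 0 genes in all were higher and 13 lower with the block, and 2 higher and 30 lower without control 8.4.16. With all introns, those with a small nucleolar RNA included, the same counts of 0 higher and 1 lower were found in mRNA sequencing, and 0 in RNAome sequencing. Members had 25639 to 120167 counts per RNAome library, against 503000 to 818779 per mRNA library, and the part of depth in the wider RNAome errors was not tested.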
